A study of Mus musculus with 51 samples.

Results

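The nuclear genes of the mitochondrial respiratory chain were followed in captured regions of the mouse cochlea. Members were taken by symbol: every row that started with Ndufa, Ndufb, Ndufc, Ndufs, Ndufv, Ndufaf, Cox4, Cox5, Cox6, Cox7, Cox8, Uqcr, Atp5, Sdha, Sdhb, Sdhc or Sdhd. The rule used no measured value and found 84 of the 6248 gene rows. They comprised 40 rows of complex I (6 core subunits, 29 accessory subunits and 5 Ndufaf assembly factors), 8 of complex II (4 subunits and 4 Sdhaf assembly factors), 6 of complex III, 13 of complex IV and 17 of complex V, with Ndufa4 counted in complex IV. All 84 symbols were current in RefSeq, where 100 protein-coding symbols carry these prefixes, and the other 16 were not analysed here. No mitochondrially encoded gene was among the rows analysed. On the filter used for testing, a mean signal of at least 1.85, 78 members passed, and Cox6b1, Cox8b, Ndufaf3, Ndufaf8, Sdhaf3 and Sdhaf4 did not.

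The regions came from GeoMx, in which barcodes are released by light from chosen areas of a section and counted by sequencing. All animals were male CBA/CaJ mice, 16 weeks old, 5 per treatment, exposed for 2 h to broadband noise at 100 dB SPL or to a mock exposure, and their cochleae were cut fresh-frozen at 6 µm. The time of collection was given in conflicting ways, as 4 h after the noise in the sample names and as directly after it in the design text. Regions were named for neurons or for supporting cells: 16 mock neuron, 12 noise neuron, 14 mock supporting-cell and 8 noise supporting-cell regions were used, and replicate 6 of the noise neurons was left out because its values were all equal (3.12). For replicate 8 of the noise supporting cells the header of the deposited table lists a read file of another well beside its own. Without that region 37 members were called between region types under mock exposure and 22 after noise, against 36 and 23 with it. No label says which animal a region came from, and every group had more regions than the 5 animals, so at least some animals gave several regions and p-values computed over regions are too small throughout. All noise areas carried one prefix in their names and all mock areas another, so treatment and anything handled with those sets cannot be told apart.

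The respiratory chain is the set of protein complexes in the inner mitochondrial membrane that passes electrons from NADH and succinate to oxygen and stores the energy as a proton gradient. Complex I takes electrons from NADH, complex II from succinate, complex III passes them to cytochrome c, complex IV hands them to oxygen, and complex V, the ATP synthase, uses the gradient to make ATP. Spiral ganglion neurons, which carry sound signals from hair cells to the brainstem, fire at high rates, and neurons as a class draw most of their ATP from this chain. Many of its nuclear genes have promoters with sites for the transcription factors NRF1 and NRF2 (GABP, a member of the ETS family), which are known to couple their expression.

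Because many of the members differed in one direction by region type, their promoters were read first. RefSeq promoters (GRCm38.p6) were found for 72 of the 84 members, and the 250 bases before the start of each gene were searched on both strands for an NRF1 motif (GCGCA and GCGC with any 1 base between) and the 7-letter ETS motif CCGGAAG. The motifs have no core in common, and a match that reads on both strands was counted once. The NRF1 letters were found in 14 of 72 member promoters (19.4%), against 5.84% of 17492 protein-coding symbols, and the ETS letters in 15 (20.8%), against 10.2%. At least 1 of the motifs was in 26 members (36.1%), against 15.0% of all symbols. Among members higher in mock neurons, 30 of which had a promoter, 6 held the NRF1 letters (20.0%), 7 the ETS letters (23.3%) and 11 either. Among the 36 tested members that were not called, the counts were 8 (22.2%), 5 (13.9%) and 12. The difference between these sets was not tested. A match is a description of letters and not a measured binding site. The 3 sequences shown belong to members called higher in mock neurons whose window held a motif and no other gene, and capitals mark the motif letters. Cox6a1 (chr5:115348959-115349208, minus strand) held 2 NRF1 matches and 1 ETS match, Ndufb7 (chr8:83566508-83566757, plus strand) 1 ETS match ending near the start, and Atp5g2 (chr15:102671048-102671297, minus strand) 1 NRF1 match.
Cox6a1: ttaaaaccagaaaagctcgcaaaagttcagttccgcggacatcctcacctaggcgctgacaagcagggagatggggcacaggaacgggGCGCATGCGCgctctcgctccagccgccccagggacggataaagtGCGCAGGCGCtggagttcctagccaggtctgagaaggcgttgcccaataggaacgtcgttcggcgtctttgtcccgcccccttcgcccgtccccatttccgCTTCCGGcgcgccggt
Ndufb7: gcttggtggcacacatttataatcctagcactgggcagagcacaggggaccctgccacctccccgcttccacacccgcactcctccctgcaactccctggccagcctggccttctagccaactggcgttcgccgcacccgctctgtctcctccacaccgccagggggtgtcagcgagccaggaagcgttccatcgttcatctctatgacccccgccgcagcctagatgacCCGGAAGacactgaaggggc
Atp5g2: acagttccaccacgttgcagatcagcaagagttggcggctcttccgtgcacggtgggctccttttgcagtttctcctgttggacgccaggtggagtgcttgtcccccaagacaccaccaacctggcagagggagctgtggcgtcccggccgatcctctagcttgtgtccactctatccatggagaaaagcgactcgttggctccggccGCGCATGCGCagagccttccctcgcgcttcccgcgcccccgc

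The neuron label was borne out by its markers, the supporting-cell label less so. The summed signal of 9 neuron markers had a median of 226 in mock neuron regions (145 to 364) and 180 in noise neuron regions (94.6 to 231), against 63.9 (40.5 to 98.8) and 78.0 (32.0 to 96.0) in mock and noise supporting-cell regions. Schwann cell and satellite glia markers, 7 rows, ran the other way, with medians of 35.1 and 21.0 in mock and noise neurons and 108 and 48.6 in mock and noise supporting cells. Of the organ of Corti supporting-cell markers only Sox2 was among the rows, at a median of 1 read in 3 of the 4 groups, so these regions are called supporting cells by their label alone. Regions held 9607 to 88156 recovered reads, with medians of 23494 and 26710 in mock and noise neurons and 12885 and 16882 in mock and noise supporting cells. The deposited signal was scaled to 1 upper quartile, 3.12, so 1 read was worth 0.208 to 1.56 units, and no value was below 1 read. A member had a median of 5.5 reads per mock neuron region and 2 reads per mock supporting-cell region.

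Respiratory chain rows took a larger share of the reads in neurons than in supporting cells, under either exposure. Their share was 2.55% ± 0.286 (SD, n = 16) in mock neurons, with a range of 1.99 to 3.01%, and 1.66% ± 0.115 (SD, n = 14) in mock supporting cells, with a range of 1.42 to 1.84%. After noise it was 2.23% ± 0.268 (SD, n = 12) in neurons, 1.72 to 2.59%, and 1.54% ± 0.179 (SD, n = 8) in supporting cells, 1.35 to 1.89%. Mock neuron and mock supporting-cell regions did not overlap in this share, noise neuron and noise supporting-cell regions did, and the groups of the 2 exposures overlapped within each region type. No value was below 1 read, and many rows stood at that floor. Their median was 31.3% of rows in mock neurons, 51.6% in mock supporting cells, and 19.2% and 35.4% after noise. The floor draws shares toward the members' part of all rows, 84 of 6248, more so in shallow regions. Its part in the difference was not tested. In these captured regions, fewer cells of a type and less RNA per cell cannot be told apart.

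**Figure D1:**
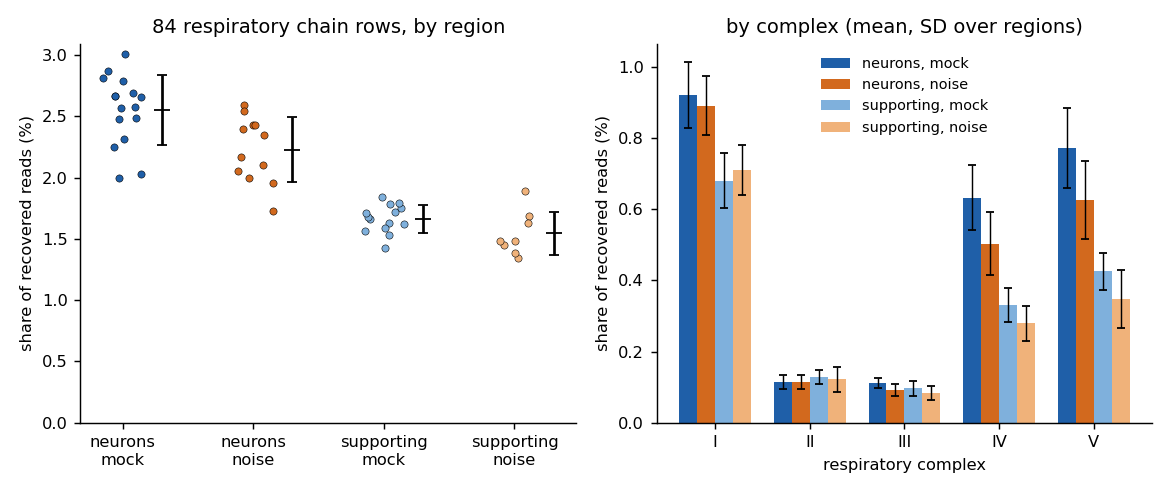
Share of recovered reads (%) in the 84 respiratory chain rows, left for each region by group with the mean and SD beside it, right for each complex as the group mean with SD. Mock neuron regions lay between 1.99 and 3.01% and mock supporting-cell regions between 1.42 and 1.84%. The gap in summed shares came mainly from complexes I, IV and V, which hold 40, 13 and 17 of the 84 rows.

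Complexes differed in how much they added to this gap. Complex IV held 0.632% ± 0.0909 (SD, n = 16) of reads in mock neurons and 0.332% ± 0.0479 (SD, n = 14) in mock supporting cells, and complex V 0.772% ± 0.113 and 0.425% ± 0.0511. Complex I held 0.922% ± 0.0921 and 0.681% ± 0.0781. Complex II, by contrast, held 0.115% ± 0.0207 in mock neurons and 0.129% ± 0.0197 in mock supporting cells, and complex III 0.113% ± 0.0143 and 0.0969% ± 0.0218. The shares of complexes II and III in the 2 region types thus lay within the spread between regions. The complex II rows include 4 Sdhaf assembly factors, and 3 of its 4 subunits had mock estimates above 0. In mock supporting cells the rows of both complexes had medians of 1 to 3 reads, close to the floor of 1 read. The part of that floor in the contrast between complexes was not tested.

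The difference held within the tissue areas. Of the 29 captured areas, 21 had a region of each type, 14 after mock exposure and 7 after noise, and in all 21 the neuron region had the larger share. The ratio of the neuron to the supporting-cell share had a median of 1.48 and ranged from 1.22 to 1.77. Neuron regions were mostly deeper than their partners. In 2 areas the neuron region had fewer reads, 10147 against 10329 (mock, ratio 1.43) and 17292 against 21455 (noise, ratio 1.49). Where it was only slightly deeper, the ratios were 1.22 (mock, 12494 against 11839 reads), 1.32 (noise, 12792 against 12495) and 1.45 (mock, 16716 against 16406). The highest ratio, 1.77, came at 18288 against 9607 reads, while at 88156 against 25605 it was 1.29. The part of depth in the ratios was not tested. The noise area with the ratio of 1.49 is that of noise supporting-cell replicate 8. Without that region the share in noise supporting cells was 1.53% ± 0.189 (SD, n = 7), and the ratio over the other 20 areas had a median of 1.47 and the same range, 1.22 to 1.77.

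**Figure D2:**
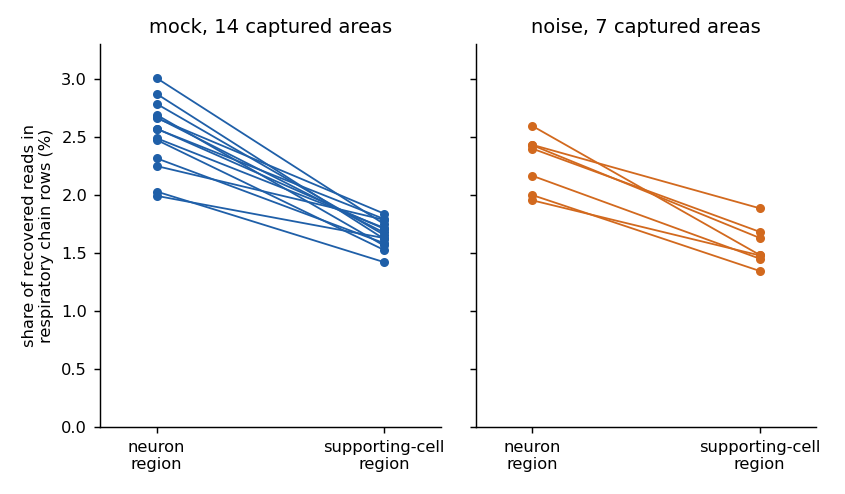
Share of recovered reads (%) in respiratory chain rows for the neuron and supporting-cell region of each captured area, joined by a line, for 14 mock and 7 noise areas. All 21 lines fall from the neuron to the supporting-cell region, with ratios from 1.22 to 1.77.

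Gene by gene, 36 of 78 members were higher in mock neurons than in mock supporting cells and 0 were lower (limma, Benjamini-Hochberg adjusted p below 0.05 over 4686 genes, captured area as a random block). Of all genes tested, 13.8% were higher and 6.19% lower. The median difference of the members was 0.48 in log2(signal + 1), a scale on which changes of weakly detected genes come out smaller than they are, against -0.05 for all genes, and 67 of 78 estimates were above 0. After noise, 23 of 78 members were higher in neurons than in supporting cells and 0 lower, against 6.94% higher and 1.34% lower of all genes, with a median of 0.48 against 0.05. Members called under both exposures numbered 18, 18 of 36 on the mock list and 18 of 23 (78.3%) on the noise list. The same overlap was not counted over all genes, so these shares do not set the members apart from other genes. The noise comparison rested on 12 and 8 regions and the mock comparison on 16 and 14. In no member were the neuron and supporting-cell groups free of overlap. Of all genes, 0.598% had mock neurons above mock supporting cells without overlap and 0.0213% below. After noise 14 of 4686 were above and 3 below. At such low shares, 0 of 78 does not set the members apart from other genes.

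The members were more abundant than most rows, so the counts were also read among the genes with a mean in the upper part of the table. With the filter at the median, 39 of 73 members were higher in mock neurons and 1 lower, against 21.6% and 6.02% of 3124 genes, and 24 of 73 after noise, against 10.9%. Rows also differed by letter: of all genes that start with A to K, 333 of 974 were higher in mock neurons (34.2%), against 175 of 2913 that start with N to S (6.01%). Members starting with A to K, which are the Atp5 and Cox genes, stood at 20 of 27 and the others at 16 of 51. The part of this split by letter in the contrast between complexes was not tested. Limiting the fit to regions of at most 25605 reads, the depth of the deepest supporting-cell region, left 8 mock and 6 noise neuron regions, and 20 members were then higher and 1 lower in mock neurons, against 7.96% and 2.20% of all genes, and 5 higher after noise, against 2.71%. DESeq2 on recovered reads called 21 members higher in mock neurons, against 6.89% of all genes, and 9 after noise, against 3.77%. With the mean of the olfactory receptor rows, taken as a measure of background, as a covariate the counts were 19, against 7.94%, and 13, against 5.53%. In log2(signal + 1) this mean was 1.41 in mock neurons and 1.65 in mock supporting cells. After noise it was 1.60 and 1.71. Since it differed between region types, the covariate can take up part of the difference under study.

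**Figure D3:**
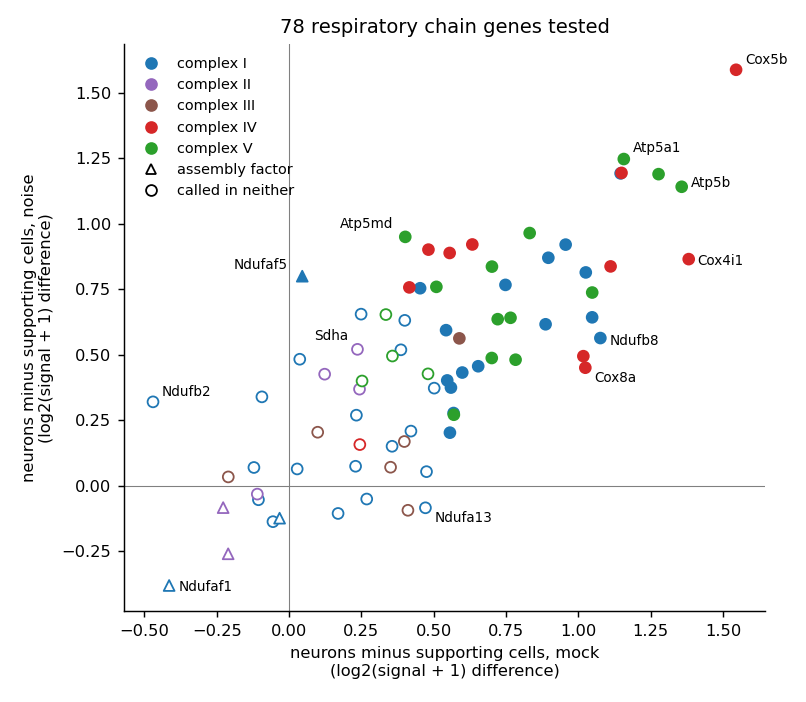
Difference between neurons and supporting cells in log2(signal + 1), under mock exposure on the x axis and after noise on the y axis, for 78 respiratory chain genes colored by complex. Filled symbols passed an adjusted p of 0.05 under at least 1 exposure, triangles are assembly factors, and complexes IV and V fill the upper right while complex II lies near 0 on the x axis only, with 3 of its 4 subunits between 0.37 and 0.52 on the y axis.

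Complex IV, cytochrome c oxidase, stood furthest apart: 8 of its 11 tested members were higher in neurons under mock exposure and 8 after noise, with medians of 1.02 and 0.87. Cox5b, a subunit that binds zinc on the matrix side, had a signal with a lowest, median and highest value of 10.9, 15.3 and 27.0 in mock neurons, 3.12, 14.0 and 21.8 in noise neurons, 1.56, 5.72 and 12.5 in mock supporting cells and 1.04, 4.03 and 5.20 in noise supporting cells. Its neuron minus supporting-cell difference was 1.54 ± 0.20 (SE) under mock exposure, adjusted p = 3.66e-13 by limma, and 1.59 ± 0.25 after noise, adjusted p = 3.27e-08. The mock groups overlapped only between 10.9 and 12.5, and the neuron region was the higher in 20 of 21 areas. Cox4i1, the ubiquitous form of the subunit at which ATP acts on the enzyme, ran from 9.36 to 22.9 (median 15.7) in mock neurons, 8.32 to 15.2 (11.3) in noise neurons, 1.56 to 10.4 (4.68) in mock supporting cells and 3.12 to 11.7 (5.85) in noise supporting cells. Its differences were 1.38 ± 0.20 (SE), adjusted p = 1.01e-10 by limma, and 0.87 ± 0.25, adjusted p = 0.00900.

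Complex IV members that have known tissue-restricted relatives were among those higher in neurons. Cox6a1, the non-muscle form, had medians of 20.7 in mock neurons (10.9 to 40.5), 16.5 in noise neurons (10.4 to 23.9), 9.36 in mock supporting cells (6.24 to 14.6) and 6.24 in noise supporting cells (3.12 to 12.5). Cox8a, the non-muscle form of subunit 8, had medians of 11.5 (4.68 to 16.6), 7.54 (3.12 to 11.1), 5.72 (1.56 to 8.73) and 4.68 (3.12 to 7.80) in the same order, and its difference was called under mock exposure (1.02 ± 0.20 SE, limma adjusted p = 6.50e-06) but not after noise (0.45 ± 0.25, adjusted p = 0.322). Cox8b, the heart and muscle form, was below the filter, with medians of 1.83, 1.14, 1.56 and 1.72 and 1 to 2.5 reads, so no difference was detectable at this depth. Cox7a2l, which joins complexes III and IV into supercomplexes, had medians of 12.0 (4.68 to 15.6), 7.71 (1.56 to 14.6), 4.68 (1.56 to 9.36) and 3.64 (1.56 to 8.58) and was higher in neurons under both exposures. Cox7a2, its relative within complex IV, had medians of 5.72 (2.08 to 9.36), 6.24 (2.34 to 8.32), 3.12 (1.56 to 9.36) and 3.12 (1.04 to 5.20), with a difference of 0.42 ± 0.20 (SE) under mock exposure, adjusted p = 0.132 by limma, and 0.76 ± 0.25 after noise, adjusted p = 0.0362.

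Of the remaining complex IV members named by rule, Cox5a, Cox7b and Ndufa4 showed the same order of region types. Cox5a had medians of 7.28 in mock neurons (1.56 to 10.9), 4.16 in noise neurons (1.56 to 8.58), 3.12 in mock supporting cells (1.04 to 4.68) and 2.60 in noise supporting cells (0.780 to 5.20), and only its mock difference was called. Cox7b had medians of 4.16 (1.56 to 10.9), 4.42 (2.67 to 6.24), 3.12 (1.04 to 6.24) and 1.82 (0.780 to 4.37) and was called under both exposures. Ndufa4, first named as a complex I subunit and now placed in complex IV, had medians of 4.68 (0.780 to 6.24), 4.63 (1.56 to 7.80), 1.82 (1.04 to 8.32) and 1.30 (0.780 to 3.90) and was called only after noise (0.90 ± 0.24 SE, limma adjusted p = 0.00542, against 0.48 ± 0.19 and 0.0610 under mock exposure). Cox6b1 was near 1 read in supporting cells, with medians of 1.82, 1.71, 1.56 and 1.04, and was not tested.

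**Figure D4:**
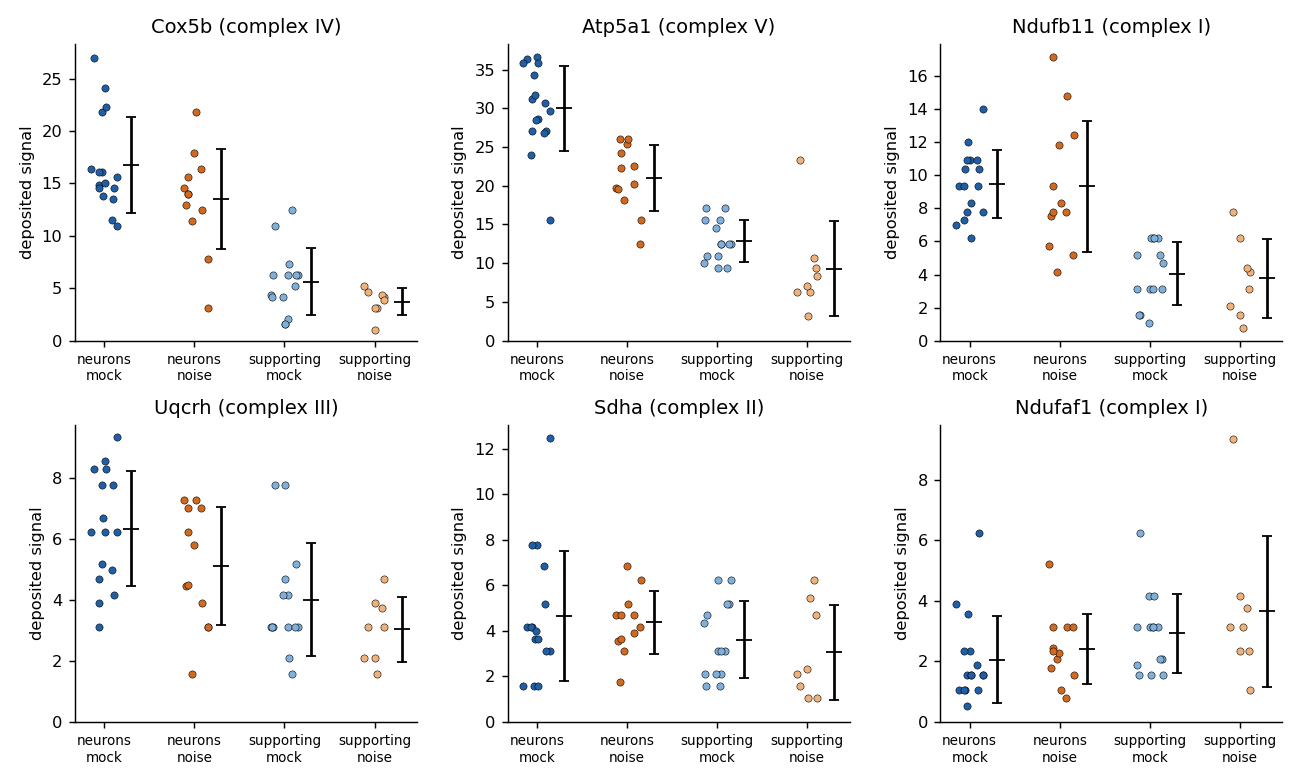
Deposited signal of 6 members by region in the 4 groups, with the group mean and SD beside the points. Cox5b, Atp5a1 and Ndufb11 were higher in neuron regions, Sdha and Ndufaf1 overlapped throughout, and 1 noise supporting-cell region stood high in Atp5a1 (23.4) and Ndufaf1 (9.36).

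Complex V, the ATP synthase, had 12 of 17 members higher in mock neurons and 8 of 17 after noise, with medians of 0.70 and 0.65, and all 17 estimates were above 0 under each exposure. The alpha, beta and gamma subunits of its catalytic F1 head had the largest mock differences of the 17. Atp5a1, the alpha subunit, ran from 15.6 to 36.6 (median 30.1) in mock neurons, 12.5 to 26.0 (21.3) in noise neurons, 9.36 to 17.2 (12.5) in mock supporting cells and 3.12 to 23.4 (7.67) in noise supporting cells. The differences were 1.16 ± 0.17 (SE), adjusted p = 1.27e-09 by limma, and 1.25 ± 0.22, adjusted p = 1.39e-06, and with the mean of the olfactory receptor rows as a covariate the mock adjusted p was 0.0623, the highest over 63 alternatives (lowest 5.88e-12). Atp5b, the beta subunit that holds the catalytic sites, had medians of 16.1 (9.36 to 24.9), 10.5 (5.20 to 16.6), 6.24 (1.04 to 15.6) and 4.03 (1.56 to 8.58). Atp5c1, the rotating gamma subunit, had medians of 16.4 (9.36 to 22.6), 14.8 (6.24 to 22.3), 5.09 (3.12 to 20.3) and 5.33 (3.12 to 7.48). Both were higher in neurons under each exposure.

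The other ATP synthase genes were mixed, in the F1 head as elsewhere. Atp5h, the d subunit of the stalk that holds the head still, had medians of 7.15 (1.56 to 15.6), 5.46 (1.56 to 8.02), 3.12 (1.04 to 6.24) and 2.21 (1.04 to 4.68). The F1 epsilon subunit Atp5e and the membrane-part subunits Atp5j2 and Atp5k were not called under either exposure. The genes Atp5g1, Atp5g2 and Atp5g3 encode the same mature c subunit of the proton-driven ring, and their mock differences were 0.78 ± 0.20, 0.72 ± 0.20 and 0.48 ± 0.20 (SE), the first 2 called and the last not (limma adjusted p = 0.0731). Probe sequences were not analysed here, so how well the assay separates these copies was not tested.

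Complex I, the entry point for electrons from NADH, had 15 of its 35 tested subunits higher in mock neurons and 6 after noise, with medians of 0.47 and 0.37. Among the core subunits, which carry the redox chemistry, Ndufs3 of the peripheral arm was called under mock exposure. It had medians of 6.24 in mock neurons (1.56 to 9.36), 4.03 in noise neurons (1.56 to 7.80), 2.08 in mock supporting cells (1.04 to 4.68) and 3.12 in noise supporting cells (1.04 to 4.16). Ndufv2, of the NADH-binding module, was called under mock exposure, while the iron-sulfur subunits Ndufs1, Ndufs7 and Ndufs8 had mock differences of -0.09, 0.03 and 0.23 and were not called.

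Accessory subunits, which stabilise the complex without carrying electrons, gave 12 calls of 29 under mock exposure and 5 after noise. Ndufb11, in the membrane arm, had medians of 9.36 in mock neurons (6.24 to 14.0), 8.06 in noise neurons (4.16 to 17.2), 3.90 in mock supporting cells (1.04 to 6.24) and 3.64 in noise supporting cells (0.780 to 7.80). Its differences were 1.15 ± 0.20 (SE), adjusted p = 3.66e-07 by limma, and 1.19 ± 0.25, adjusted p = 0.000134, and the lowest mock neuron region equalled the highest mock supporting-cell region. Ndufb8, also of the membrane arm, had medians of 6.39 (1.56 to 14.0), 5.01 (1.56 to 8.84), 2.08 (1.04 to 6.24) and 2.42 (1.56 to 4.68) and was called under mock exposure. Ndufa12 had medians of 7.80 (4.68 to 12.5), 8.13 (6.24 to 10.1), 4.16 (1.04 to 9.36) and 4.16 (1.04 to 8.11) and was called under both. The accessory subunit furthest the other way was Ndufb2, with a mock difference of -0.47 ± 0.19 (SE), limma adjusted p = 0.0559, which was called lower under 16 of 63 alternatives, with adjusted p from 0.0209 to 0.653.

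The members also include assembly factors, which build the complexes and are not part of them. Of the 5 tested, 0 were called under mock exposure (unadjusted p below 0.05 in 1, Ndufaf1) and 1 after noise, and their median mock difference was -0.21 against 0.50 for the 73 tested subunits. Ndufaf1 had medians of 1.56 in mock neurons (0.520 to 6.24), 2.31 in noise neurons (0.780 to 5.20), 3.12 in mock supporting cells (1.56 to 6.24) and 3.12 in noise supporting cells (1.04 to 9.36). Ndufaf5 had medians of 2.28 (0.520 to 5.72), 3.12 (2.23 to 4.68), 1.71 (1.04 to 6.24) and 1.14 (0.780 to 3.12), and was higher in neurons after noise (0.80 ± 0.23 SE, limma adjusted p = 0.0116). At 1.5 to 4.5 reads per region these rows lie close to the floor of 1 read, where differences are compressed, and the contrast between subunits and assembly factors was not tested.

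Among the members, complexes II and III gave 1 call in all between region types. Their medians were 0.18 and 0.37 under mock exposure and 0.40 and 0.12 after noise, against 0.47 and 0.37 for complex I. Complex II, also an enzyme of the citric acid cycle, had 0 of 4 subunits called under either exposure (limma; unadjusted p below 0.05 in 0 under mock exposure and 1 after noise). Sdha, its flavoprotein, had medians of 4.08 in mock neurons (1.56 to 12.5), 4.42 in noise neurons (1.73 to 6.86), 3.12 in mock supporting cells (1.56 to 6.24) and 2.21 in noise supporting cells (1.04 to 6.24), with a mock difference of 0.24 ± 0.20 (SE). Sdhd, a membrane anchor, had medians of 3.34 (1.56 to 6.24), 3.51 (1.56 to 5.20), 3.12 (1.04 to 6.24) and 2.34 (0.780 to 5.20). In complex III, 1 of 6 was called under mock exposure and 0 after noise (unadjusted p below 0.05 in 3 and 1). The called member was Uqcrh, the hinge protein, with medians of 6.24 (3.12 to 9.36), 5.16 (1.56 to 7.28), 3.12 (1.56 to 7.80) and 3.12 (1.56 to 4.68) and a mock difference of 0.59 ± 0.20 (SE), limma adjusted p = 0.0215. Uqcr10, a small subunit, had medians of 3.12 (1.04 to 5.20), 2.38 (0.780 to 7.28), 1.56 (1.04 to 5.20) and 2.08 (0.780 to 5.20), and Uqcrfs1, the Rieske iron-sulfur protein, a mock difference of -0.21 ± 0.18. The prefix rule does not cover all of complex III. Cyc1, its cytochrome c1, is not a member and was higher in neurons under both exposures. Its differences were 0.78 ± 0.20 (SE), limma adjusted p = 0.000806, under mock exposure and 0.71 ± 0.25, adjusted p = 0.0463, after noise.

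Noise changed no member past the threshold in the limma fit, though edgeR and DESeq2 called 9 and 8 members lower in neurons, as described below. In neurons, 0 of 78 members were called against mock (limma), beside 0.662% of all genes, 10 higher and 21 lower. At so low a share, 0 of 78 does not set the members apart from other genes. The members' median was -0.11 against 0.02 for all genes, and 56 of 78 estimates were below 0, against 2171 of 4686 over all genes. At an unadjusted p below 0.05 there were 12 members (15.4%), against 13.5% of all genes. All 17 complex V and all 6 complex III estimates were below 0, as were 10 of 11 of complex IV, whose median was -0.35, while complex I subunits split 14 above to 21 below with a median of -0.09. All genes were also split by letter, with 780 of 974 starting with A to K below 0. For N to S, the letters of the Nduf genes, it was 925 of 2913. For T to Z, the letters of the Uqcr genes of complex III, it was 251 of 427. Members starting with A to K, the Atp5 and Cox genes, stood at 27 of 27, and the others at 29 of 51. The part of this split in the pattern by complex was not tested. All 5 assembly factors tested were above 0, with 1 at an unadjusted p below 0.05.

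**Figure D5:**
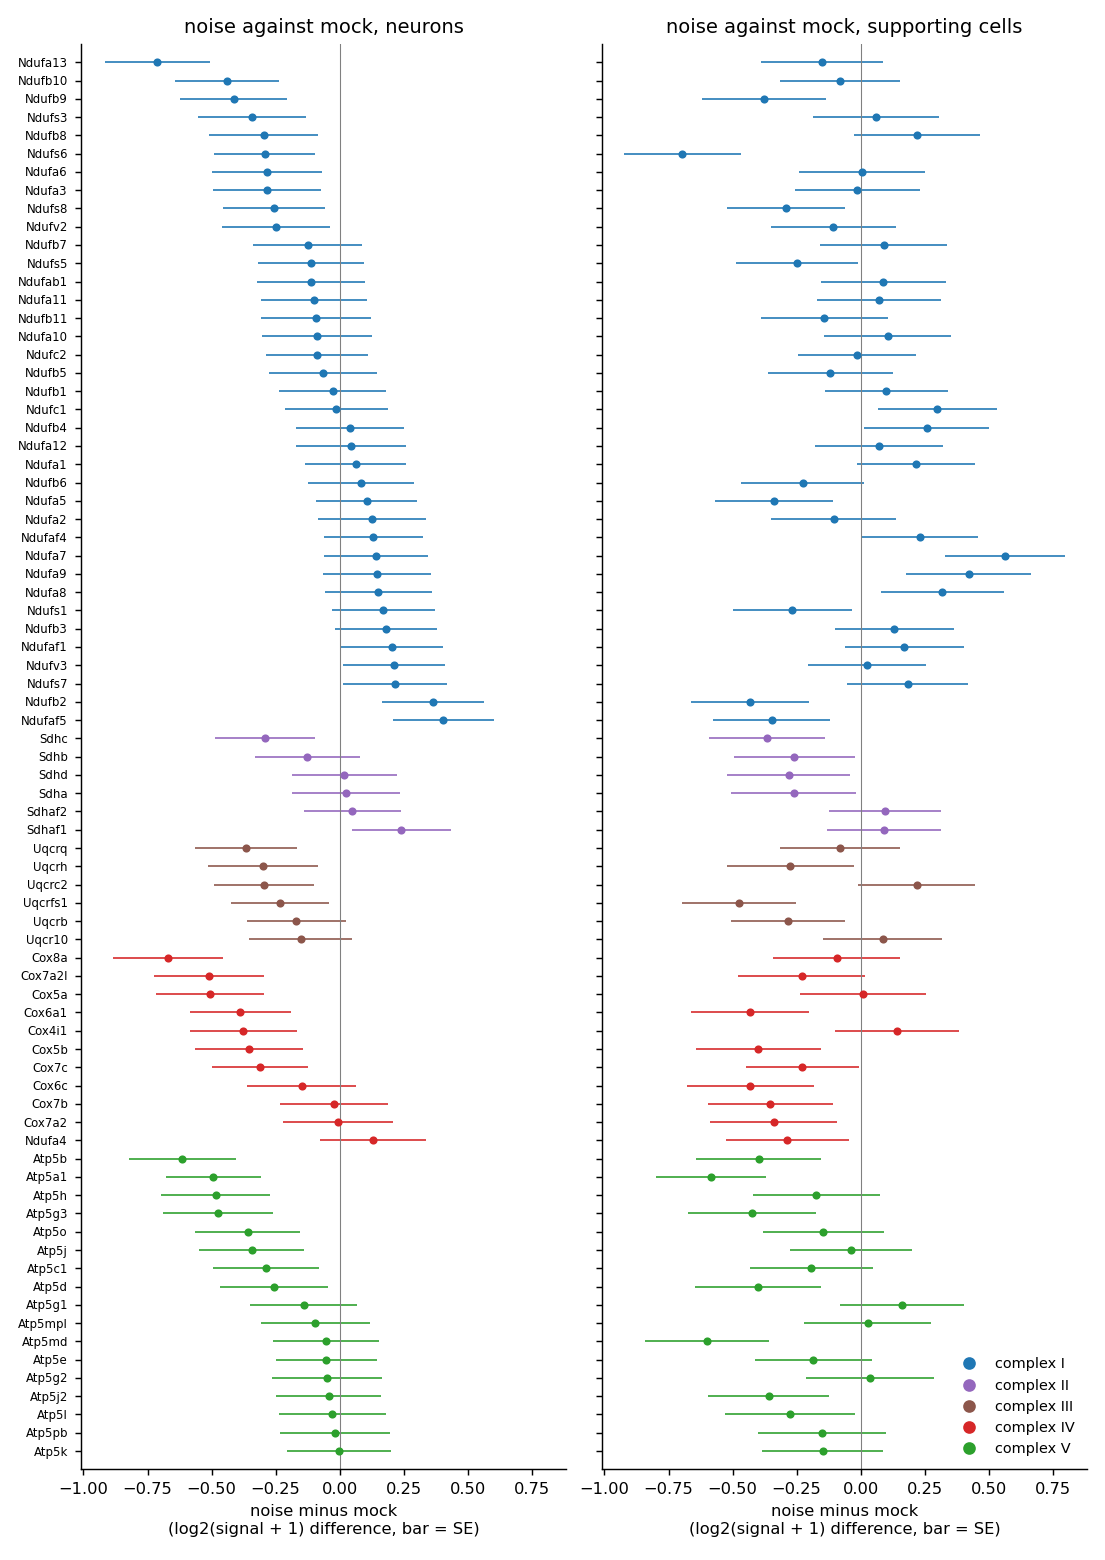
Noise minus mock difference in log2(signal + 1) for 77 of the 78 respiratory chain genes tested, in neurons on the left and in supporting cells on the right, with bars of 1 SE and colors by complex. No gene passed an adjusted p of 0.05 by limma. In neurons all complex III and V points lie below 0. Of all genes, 780 of 974 starting with A to K, as the complex V genes do, lie below 0. For T to Z, which holds the complex III genes, it is 251 of 427.

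The members with the lowest noise estimates in neurons were Ndufa13, Cox8a and Atp5b. Ndufa13, an accessory subunit of complex I also known as GRIM-19, had a median of 3.38 (2.08 to 7.80) in mock neurons and 2.08 (0.780 to 5.20) in noise neurons, a difference of -0.71 ± 0.20 (SE), limma adjusted p = 0.0631. It was called under 5 of 62 alternatives, namely the edgeR count test (adjusted p = 0.0143) and the fits without noise neuron replicate 2 or 8 or mock neuron replicate 3 or 15 (0.0419 to 0.0496), and its adjusted p reached 0.289. Cox8a differed by -0.67 ± 0.21 (SE), adjusted p = 0.125 by limma, and Atp5b by -0.61 ± 0.21, adjusted p = 0.147. The groups overlapped in all of them.

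Tests on the recovered reads called more. edgeR's quasi-likelihood test called 9 of 77 members lower after noise in neurons and 0 higher, against 3.40% of all genes lower and 0.538% higher, and DESeq2 called 8 lower, against 2.54%. limma with a pseudocount of 5 called 1, Cox8a, lower, against 0.704%. The 8 called by both were Atp5a1, Atp5b, Atp5g3, Atp5h, Cox4i1, Cox5a, Cox6a1 and Cox8a, with edgeR estimates from -0.48 to -0.81 and adjusted p from 0.000292 to 0.0469. For Cox8a the DESeq2 adjusted p was 0.000231 and the range over 63 alternatives reached 0.659. These 8 all start with A or C, and among all genes starting with A to K the median noise difference in neurons was -0.19, against 0.11 for N to S, while members starting with A to K had a median of -0.29 and the others -0.09. With the mean of the olfactory receptor rows as a covariate the members' median was -0.07 and that of all genes -0.08. That mean was itself 1.41 in mock and 1.60 in noise neurons, so the covariate can take up part of the exposure difference. Its part was not tested. The summed neuron markers were also lower in noise than in mock neuron regions (180 against 226), with 1 of 9 called lower, and their part in the result was not tested.

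In supporting cells 0 of 78 members were called after noise, against 0.363% of all genes, with 5 members (6.41%) at an unadjusted p below 0.05, against 10.1% of all genes, and a median of -0.14 against -0.03 for all genes. edgeR and DESeq2 on recovered reads also called 0, against 0.172% and 0.258% of all genes. The estimate furthest below 0 was that of Ndufs6, an accessory subunit of complex I (-0.70), and that furthest above was Ndufa7, another (0.56). Schwann cell and satellite glia markers fell in these regions, 4 of 7 called lower, from a summed median of 108 to 48.6, and their part in the members' values was not tested. In the test of whether the noise effect differed between neurons and supporting cells, 0 of 78 members were called, as for all genes (0 of 4686), with 2 members (2.56%) at an unadjusted p below 0.05 by limma, against 6.10% of all genes, and 0 calls by edgeR or DESeq2.

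The pathways around the chain were read against the 13.8% of all genes higher in mock neurons and the 6.94% higher after noise. Of 16 glycolysis genes tested, 8 were higher in mock neurons and 4 after noise, and none were lower, with medians of 0.53 and 0.44. Pyruvate dehydrogenase and the citric acid cycle feed electrons to the chain. Their list gave 6 and 5 of 20 higher, with medians of 0.26 and 0.22. It also holds the regulatory Pdk kinases and Mdh1, the cytosolic malate dehydrogenase, and Mdh1 was among the genes called under both exposures. Other assembly factors and electron carriers of the chain gave 3 and 1 of 16, including 2 Sdhaf genes that are also members; the 3 called under mock exposure were Cyc1, the cytochrome c1 of complex III, at 0.78 ± 0.20 (SE), limma adjusted p = 0.000806, and the assembly factors Atpaf1 of complex V (0.73 ± 0.19, adjusted p = 0.00160) and Uqcc2 of complex III (0.66 ± 0.19, adjusted p = 0.00553). Mitochondrial import gave 1 and 0 of 17, the mitochondrial ribosome 0 and 2 of 28 with 1 lower under mock exposure, regulators of mitochondrial gene expression 1 and 0 of 4, and mitochondrial redox defence 3 and 1 of 8 with 1 lower under each. For noise against mock, where 0.662% and 0.363% of all genes were called in neurons and supporting cells, only glycolysis among these lists had called genes, 2 of 16 lower in neurons and 1 lower in supporting cells. Whether any list differed from another was not tested.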

How the data were processed

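GeoMx signal was measured in 51 cochlear regions and 50 were used. The authors deposited 1 table of signal per region, scaled to a common upper quartile of 3.12, with no aligner settings among the sources used here; the submitters' processing notes name DRAGEN, mm10 and GRCm38 with no role. Dividing by the lowest value of each region gave whole reads for 99.99% of values (within 0.01). No value was 0, for a reason no source gives, and 66 entries without a number (1 in a member, Atp5l in noise supporting-cell replicate 2) were set as missing. Counts had been planned for; since the files hold signal, log2(signal + 1) was fitted with limma 3.58.1 in R 4.3.3 (lmFit, eBayes with trend, 4 group means), over the 4686 genes whose mean reached the 0.25 quantile. The captured area was a random block in comparisons across region types (correlation 0.039). Calls are at an adjusted p of 0.05. The fit was tested on simulated data. Alternatives were other pseudocounts, filters and normalizations, edgeR 4.0.16 and DESeq2 1.42.0 on recovered reads, covariates, blocks, and leaving out each region. Members and gene lists were chosen with earlier results of these data known. Named members are the 12 with the smallest adjusted p, the 2 of highest mean signal in each class of subunit, and known tissue forms of complex IV; others, such as Ndufa13, Ndufb2, Ndufs6, Ndufa7, Uqcrfs1, the Atp5g genes, Cyc1, Atpaf1 and Uqcc2, were named after their values were seen, and 1 member named by the rule is not reported here. Depth per region was 9607 to 88156 recovered reads, which sets the precision.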

Additional observations from a re-analysis of the deposited data

Results flagged for a closer look

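In the noise supporting cells, the 1 group small enough for the check (8 regions), the signal of each named member and the summed share of reads were checked for a single region far from the others. Of 27 quantities, 3 stood out, all in replicate 2. For independent, normally distributed values chance gives about 1 in 20. These values are whole multiples of 1 read and come from the same regions, so that rate need not hold here. Atp5a1 had a signal of 23.4 there, from 15 reads, against 3.12 to 10.6 in the other regions; without this region its noise minus mock difference in supporting cells was -0.79 (limma adjusted p = 0.0799, range over 63 alternatives 0.0799 to 0.592), against -0.58 (0.248) with it. Ndufaf1 stood at 9.36, from 6 reads, against 1.04 to 4.16. Ndufaf5 stood at 3.12, from 2 reads, against 0.780 to 1.56. This was the shallowest region of its group, with 11770 recovered reads and 1.56 units of signal per read.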

How the results depend on the processing

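Among 63 alternatives, 50 of which left out 1 region each, none turned the direction of a called member's difference, or of the members' median in 4 of the 5 comparisons. In the fifth, the difference of the noise effects, with no calls, the median of -0.03 lay between -0.07 and 0.01 when 1 region was left out, and was above 0 without noise supporting-cell replicate 6 or 8 or noise neuron replicate 9. Members called between region types under mock exposure, 36 in the reported fit, numbered 21 with DESeq2, 19 with the mean of the olfactory receptor rows as a covariate and 21 in regions of at most 25605 reads, an alternative chosen after seeing the data. After noise, 23 became 9, 13 and 5 under the same settings. Noise against mock in neurons went from 0 calls to 1 with a pseudocount of 5 (Cox8a), 9 with edgeR and 8 with DESeq2. The cause of these moves was not tested. Leaving out 1 region at a time gave 32 to 40, 16 to 25 and 0 to 1 member calls in these 3 comparisons, and 0 to 0 in the others. Over all genes the same fits gave 872 to 979, 301 to 413 and 12 to 35 calls. For noise in supporting cells they gave 3 to 21, and for the difference of the noise effects 0 to 0. The members' median between region types under mock exposure was 0.65 with a pseudocount of 0.1, 0.23 with 5 and 0.91 with the negative probe subtracted, and after noise 0.67, 0.23 and 0.79. The median of all genes under mock exposure moved from -0.05 to -0.22 with DESeq2, 0.12 with the covariate and 0.23 with the negative probe subtracted. Called under all 63 were 15 members under mock exposure and 5 after noise (Atp5a1, Atp5b, Cox5b, Cox6a1 and Ndufb11). This count was not made over all genes, so it does not set the members apart from other genes. With the replicate block, the fit with the replicate number of the titles, calls were 38 under mock exposure, 21 after noise and 0 for the noise effects. Deviations of regions with the same number were hardly correlated (from -0.11 to 0.06, none above 0.1 in 12, 8, 14 and 7 pairs of the 4 group comparisons). Regions of the same captured area, which share tissue, were about as weakly correlated, with medians of 0.027 in 14 mock and 0.017 in 7 noise areas. The check therefore cannot tell whether the number pairs regions. Depth limits the rows near 1 read most, such as the assembly factors and Cox8b, where only large differences could be seen.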
